A study of Mus musculus with 2 samples.

Results

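In the deposited expression table of mouse thigh muscle, 234 of 23672 loci carried more than 1 gene symbol, and these merged loci are described here. They were found by the gene column alone: an entry with 2 or more distinct symbols made a locus a member, and no expression value was used. A further 10548 loci carried a single symbol and 12890 carried none. Each merged locus has a single value per library, so the value belongs to all of its genes together and cannot be divided among them.

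The table compares skeletal muscle from the thigh of B6C3F1 mice, a hybrid strain, at 26 months of age. The control group ate a control diet, and the calorie restriction (CR) group received about 40% fewer calories for 25 months on an enriched diet. Polyadenylated RNA was read in 1 library per group with 76-base paired-end reads. There are no replicates, so no difference below has a replicate error, a test or a p-value. The sources used here do not say how many mice each library stands for. Values are FPKM, fragments scaled by transcript length and by the number of mapped fragments, and pairs of values give control and then CR. A log2 ratio is that of CR + 1 over control + 1 in FPKM, and a fold is the same ratio without the logarithm. Depth is unknown. Of 10 muscle markers, all were listed in both libraries, and their levels summed to 968540 and 1439940 FPKM. At least 2-fold higher in CR were 2 of them and 0 were lower, with a median log2 ratio of 0.64. The marker Des was read from the merged locus Des/Speg. In a bulk sample, fewer cells of a type and less RNA per cell cannot be told apart.

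Several arrangements in a genome put more than 1 gene into the same stretch of transcribed sequence. Many microRNAs, short RNAs that repress messenger RNAs through a seed sequence, and many small nucleolar RNAs (snoRNAs), which guide the modification of other RNAs, are cut from the exons or introns of a longer host transcript. Gene duplication leaves paralogs side by side whose sequences can be so alike that a short read fits more than 1 of them. Neighbouring genes on the same strand can share exons, or transcription of the upstream gene can run on into the downstream gene as a readthrough transcript.

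By their symbols the merged loci fell into 3 classes. Neighbouring genes with unrelated names made up 152 loci, hosts with an annotated small RNA 49, and tandem paralogs with the same name stem 33. The stem had to have at least 3 letters, which left families with shorter stems, among them Mt1 with Mt2 and C4a with C4b, among the neighbouring genes. Most loci (207) held 2 symbols, 21 held 3 and 5 held 4, and 1 locus held the 37 symbols of the alpha and gamma protocadherin clusters, cell adhesion genes that share constant exons. The members carried 534 symbols in all, on the plus strand in 113 loci and on the minus strand in 121. Of these symbols, 503 were found in the GENCODE M21 annotation. With small RNAs left out, all 823 pairs of different found genes within a locus lay on the same strand. Each locus is itself listed on a single strand, and many of the pairs come from the protocadherin locus. In that annotation 56 loci held genes that overlap in an exon, 30 held copies, genes with no exon overlap whose transcripts share at least 1 window of 76 bases, and 73 held neither. Genes that overlap in an exon can share such windows as well, and they are not counted as copies. In 5 loci the symbols are now names of a single gene. In 69 loci fewer than 2 symbols could be set against each other. Most of these 69 were small RNA hosts, because small RNAs were left out of the comparison.

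The microRNAs in merged loci had 40 symbols, of which 36 were found in RefSeq (build GRCm38.p6), 1 through an older name, with 54 mature sequences. They are shown for the hosts on which the values below turn, with the seed (bases 2 to 8) in capitals. Over all 54 mature sequences a single seed was shared by different names, that of miR-29b-3p and miR-29c-3p, which come from the same locus on chromosome 1.
miR-21a-5p (Tmem49/Mir21): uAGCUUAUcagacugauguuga
miR-22-3p (2210403K04Rik/Mir22): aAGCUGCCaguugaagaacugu
miR-26a-5p (Ctdsp2/Mir26a-2/Mir546/Avil): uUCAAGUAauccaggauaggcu
miR-29b-3p (A330023F24Rik/Mir29b-2/Mir29c): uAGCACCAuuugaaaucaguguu
miR-29c-3p (A330023F24Rik/Mir29b-2/Mir29c): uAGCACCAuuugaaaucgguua
miR-343 (Ercc2/Mir343): uCUCCCUUcaugugcccaga
miR-675-5p (H19/Mir675): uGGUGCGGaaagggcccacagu
miR-711 (Col7a1/Mir711): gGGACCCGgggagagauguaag
miR-1902 (Hipk3/Mir1902): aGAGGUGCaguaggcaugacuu
miR-3474 (Actr5/Mir3474): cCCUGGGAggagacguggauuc

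For tandem paralogs, the sequence that matters is the stretch the genes have in common. The longest identical run between the coding sequences of Scd2 and Scd3 is 125 bases, and that between Tnfrsf22 and Tnfrsf23 is 102 bases, both longer than a 76-base read. The runs are shown in capitals with 15 bases on either side (GENCODE M21, build GRCm38), because these loci had the highest and the lowest log2 ratio among the merged loci above 0 in both libraries. A single read from within the capitals fits either gene, and its mate in the pair was not considered.
Scd2 (chromosome 19, run at coding bases 532 to 656): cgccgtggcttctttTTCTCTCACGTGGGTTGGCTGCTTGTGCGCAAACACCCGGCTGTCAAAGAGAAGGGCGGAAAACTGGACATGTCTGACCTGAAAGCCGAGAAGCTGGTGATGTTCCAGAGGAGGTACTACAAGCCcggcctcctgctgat
Scd3 (chromosome 19, run at coding bases 535 to 659): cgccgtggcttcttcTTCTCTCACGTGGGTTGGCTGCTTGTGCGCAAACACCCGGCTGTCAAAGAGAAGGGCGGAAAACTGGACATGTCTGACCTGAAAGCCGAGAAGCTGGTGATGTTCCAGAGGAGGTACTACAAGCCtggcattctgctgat
Tnfrsf22 (chromosome 7, run at coding bases 421 to 522): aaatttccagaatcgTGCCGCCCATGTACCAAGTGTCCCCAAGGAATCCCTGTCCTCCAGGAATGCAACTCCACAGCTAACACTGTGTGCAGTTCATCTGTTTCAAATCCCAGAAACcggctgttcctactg
Tnfrsf23 (chromosome 7, run at coding bases 391 to 492): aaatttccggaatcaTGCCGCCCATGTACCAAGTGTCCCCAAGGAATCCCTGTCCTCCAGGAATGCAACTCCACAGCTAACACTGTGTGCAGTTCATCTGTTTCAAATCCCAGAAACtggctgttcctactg
Mt1 and Mt2, which encode metal-binding metallothioneins and also share a locus, have a longest identical coding run of 20 bases, fewer than a read.
Mt1 (chromosome 8): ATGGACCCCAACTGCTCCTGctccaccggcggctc
Mt2 (chromosome 8): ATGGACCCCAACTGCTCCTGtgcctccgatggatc

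Merged loci were somewhat longer and more abundant than loci with a single symbol. Their median length was 24830.5 bases on mm9, against 22838.5 bases for single-symbol loci, and the median of their mean level was 334 FPKM against 224 FPKM. A mean of at least 1000 FPKM was reached by 42 merged loci (17.9%) and by 8.49% of single-symbol loci. Together they held 1.52% of the summed FPKM of the control library and 1.40% of that of the CR library. By span, introns included, a named locus on the opposite strand overlapped 23.9% of merged loci and 13.4% of single-symbol loci. The library preparation as described does not mark strand, so reads from stretches where exons of such pairs overlap may not be told apart. Exon overlap between opposite strands was not measured.

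Most merged loci had similar levels in both libraries. Of the 226 that had a mean of 10 FPKM or more and were at 0 in neither library, 204 were less than 2-fold apart, 9 were at least 2-fold higher in CR and 13 at least 2-fold lower. Past 2-fold is a description of size here and not a test. Over all 18797 loci under the same filter, 10.6% were at least 2-fold higher in CR and 10.9% lower. Among the 9847 loci with a single symbol these shares were 6.15% and 6.84%, and among merged loci they were 3.98% and 5.75%. The merged loci therefore passed the fold no more often than the rest of the table. Within 1.5-fold lay 158 merged loci and within 3-fold 217. Scaling the libraries to equal sums without the 50 most abundant loci changed the counts to 7 higher and 16 lower. The median log2 ratio of the merged loci was -0.04, beside 0.00 over all loci and -0.02 over single-symbol loci.

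**Figure D1:**
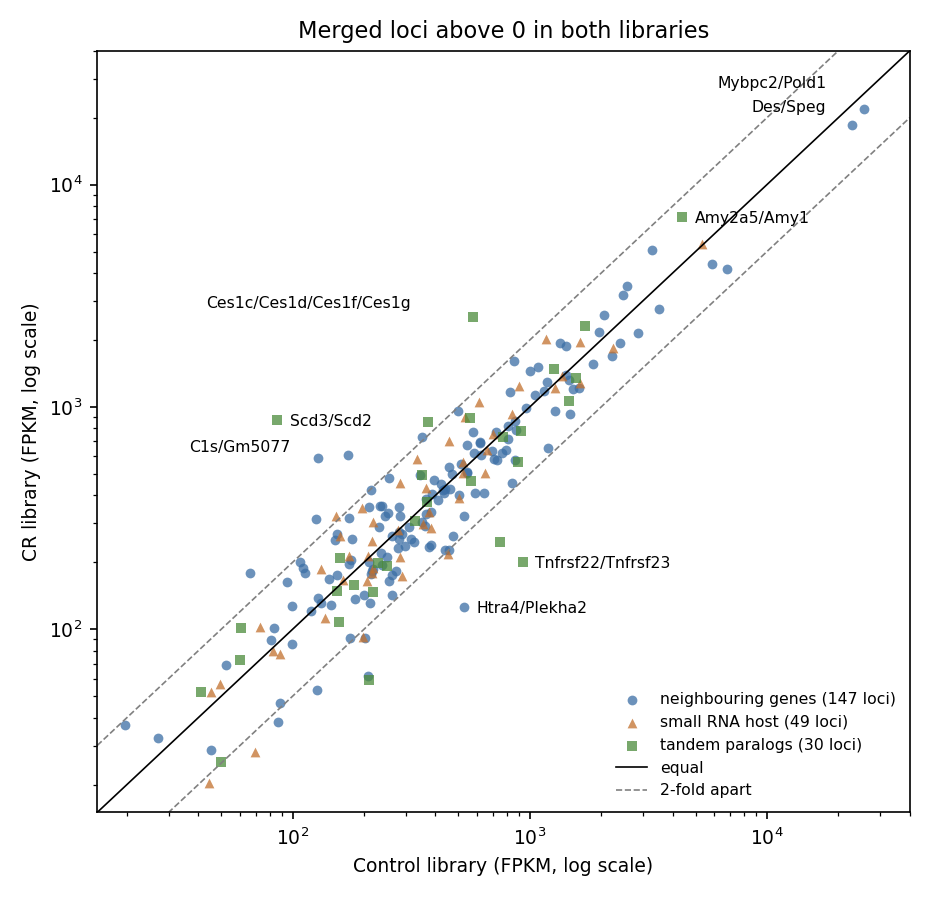
Level of each of the 226 merged loci above 0 in both libraries, control (x axis) against CR (y axis), both in FPKM on log scales; each point is a locus, its colour and shape the class, the solid line equality and the dashed lines 2-fold. Most points lie between the dashed lines, 9 lie above and 13 below.

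The classes had similar medians. The median log2 ratio was -0.04 for the 147 neighbouring-gene loci, 0.02 for the 49 small RNA hosts and -0.09 for the 30 tandem paralog loci that could be compared. The tandem paralogs held the highest and lowest ratios, with 3 loci at least 2-fold higher (10%) and 3 at least 2-fold lower (10%). Counts past 2-fold were 5 higher (3.40%) and 6 lower (4.08%) among neighbouring genes, and 1 higher (2.04%) and 4 lower (8.16%) among small RNA hosts. The shares over all loci were 10.6% and 10.9%, and over single-symbol loci 6.15% and 6.84%. Ordered by the GENCODE relation instead, loci with copies had a median of 0.23 over 28 loci (5 higher, 2 lower), loci with a shared exon -0.20 over 52 (1 higher, 4 lower) and loci with neither -0.10 over 73 (2 higher, 3 lower). Markers of other cell types also differed between the libraries. At least 2-fold higher in CR were 2 of 3 listed neutrophil markers (sum 100 and 809 FPKM, with S100a8 at 0 in the control), 1 of 3 erythroid (18703 and 51220 FPKM), 1 of 5 endothelial, 1 of 4 macrophage and 0 of 5 Schwann cell markers, and their part in the ratios of merged loci was not tested.

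**Figure D2:**
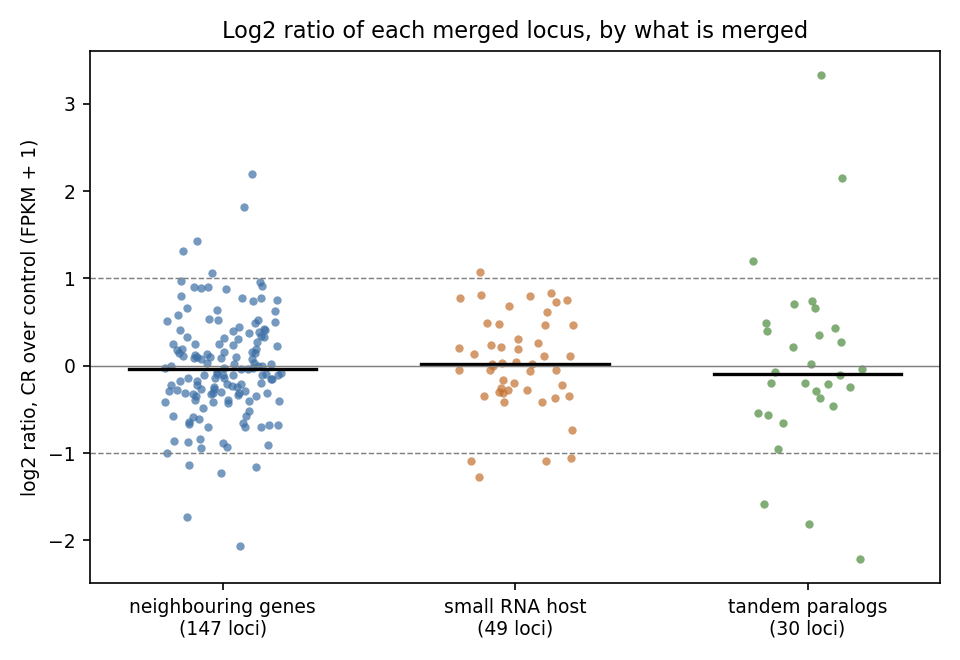
Log2 ratio of CR over control (y axis, on FPKM + 1) for each merged locus above 0 in both libraries, by class (x axis); points are loci, spread sideways at random, black bars the class medians and dashed lines 2-fold. The medians are -0.04, 0.02 and -0.09, and the tandem paralogs reach from -2.21 to 3.33.

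Among the loci of neighbouring genes, the 4 of highest mean level held genes of the muscle fibre or of the cytoskeleton. Mybpc2/Pold1 (chr7:51756530-51804185, minus strand) was listed at 25596 and 21921 FPKM, a log2 ratio of -0.22. Mybpc2 encodes the fast skeletal isoform of myosin-binding protein C, and Pold1 a catalytic subunit of DNA polymerase delta. Des/Speg (chr1:75351940-75428884, plus strand) was listed at 22742 and 18609 FPKM (log2 -0.29). Des encodes desmin, the intermediate filament of muscle, and Speg a kinase of striated muscle. Hspb7/Zbtb17, a small heat shock protein of muscle with a zinc finger regulator, had 5862 and 4389 FPKM. Myl12b/2900073G15Rik, which joins regulatory light chains of non-muscle myosin, had 6795 and 4180 FPKM, 1.63-fold lower in CR. These 4 loci were all lower in CR, by less than 2-fold.

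Other abundant neighbours and pseudogene pairs stayed under 2-fold as well, in either direction. Atp5j, a coupling subunit of mitochondrial ATP synthase listed with LOC654426, had 3274 and 5096 FPKM (log2 0.64). Hspa8, the constitutive Hsc70 chaperone listed with LOC624853, had 3492 and 2753 FPKM (log2 -0.34). Ndufa7, a subunit of respiratory complex I listed with Kank3, had 2578 and 3500 FPKM (log2 0.44). The loci of Cpt1b with Chkb (1839 and 1554 FPKM), which hold the muscle carnitine palmitoyltransferase and choline kinase beta, and of Mt2 with Mt1 (1481 and 932 FPKM) were lower in CR. Of all 42 merged loci with a mean of at least 1000 FPKM, only the Ces1 locus was at least 2-fold apart.

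Ribosomal protein genes were listed with small RNAs or with pseudogene names. Rps3a/Rnu73b had 1172 and 2031 FPKM, Rps2/Snora64 196 and 350 FPKM, Gm12191/Rpl30 496 and 962 FPKM and Rpl34/Rpl34-ps1 860 and 1605 FPKM. All 4 were higher in CR, between 1.73-fold and 1.94-fold, and none reached 2-fold. Ribosomal protein genes have many processed pseudogenes of near-identical sequence, so how reads were divided among them is uncertain.

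Among tandem paralogs the stearoyl-CoA desaturase locus was the highest in CR. These enzymes put the double bond into newly made saturated fatty acids. Scd3/Scd2 (chr19:44277778-44381352, plus strand) was listed at 86.3 and 876 FPKM, a log2 ratio of 3.33. Scd1, another gene of this cluster, had a locus of its own at 1072 and 14907 FPKM (log2 3.80). Its transcripts share 77 windows of 76 bases with those of Scd2 and 110 with those of Scd3, so single reads of these 3 genes, without their mates, are not fully separable. Of the 8 listed white adipocyte markers, 7 were at least 2-fold higher in CR, none was at 0, and their sum was 3965 and 18734 FPKM. Their part in the Scd3/Scd2 value, and in those of the loci named next, was not tested.

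The carboxylesterase locus Ces1c/Ces1d/Ces1f/Ces1g (chr8:95622915-95893976, minus strand) was listed at 576 and 2550 FPKM, 4.42-fold higher in CR. Ces1d hydrolyses triacylglycerol in adipose tissue and liver, and Ces1c is abundant in blood plasma. The single-symbol locus Ces2c, another carboxylesterase, went the other way with 705 and 128 FPKM (log2 -2.46). Selenbp2/Selenbp1, selenium-binding proteins of which Selenbp1 oxidises methanethiol, had 371 and 855 FPKM, 2.30-fold higher in CR. The transcripts of this pair share 29.3% of the windows of the smaller gene. Amy2a5/Amy1, amylase genes, had 4391 and 7141 FPKM (log2 0.70), and no 76-base window is shared between them.

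At the low end, Tnfrsf22/Tnfrsf23 (chr7:150822289-150871777, minus strand) was listed at 935 and 201 FPKM, a log2 ratio of -2.21. Both encode decoy receptors for the death ligand TRAIL that lack a death domain, and both lie in the imprinted domain of distal chromosome 7. Another receptor of the family, Tnfrsf12a, which binds the cytokine TWEAK, had a locus of its own at 271 and 61.1 FPKM (log2 -2.13). The 7 single-symbol loci with the same name stem ranged from this ratio up to 0.43 (Tnfrsf1a, 162 and 218 FPKM). Acot2/Acot1 (chr12:85328609-85358619, plus strand), acyl-CoA thioesterases of mitochondria and cytosol that release free fatty acids, had 746 and 247 FPKM, 3.01-fold lower in CR. Its 7 single-symbol relatives were all less than 2-fold apart, from -0.43 on the log2 scale for Acot6 (52.9 and 39.1 FPKM) to 0.83 for Acot9 (471 and 840 FPKM). Zfp783/Zfp956, zinc finger genes with a shared exon, had 209 and 59.1 FPKM (log2 -1.81).

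**Figure D3:**
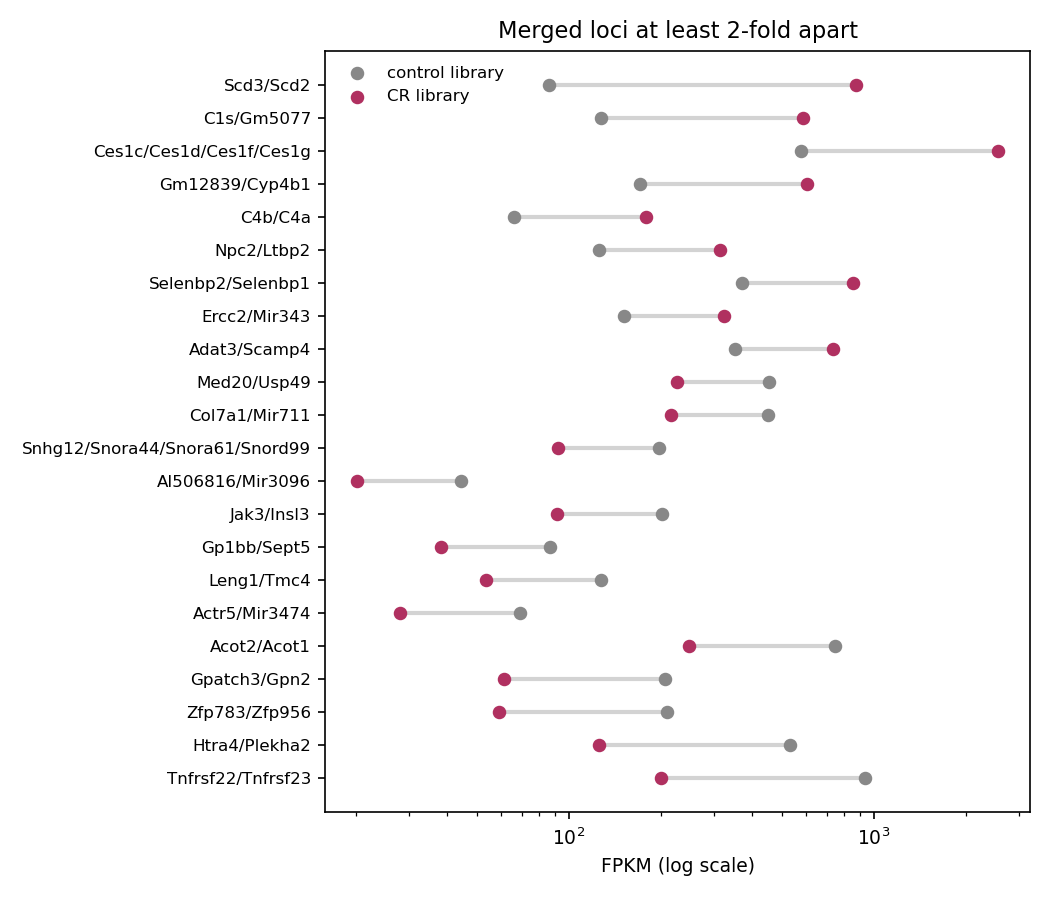
Level of the 22 merged loci that were above 0 in both libraries and at least 2-fold apart, in FPKM on a log scale (x axis), ordered by log2 ratio (y axis); grey points are the control library and red points the CR library. Scd3/Scd2 is at the top with 86.3 and 876 FPKM and Tnfrsf22/Tnfrsf23 at the bottom with 935 and 201 FPKM.

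The remaining tandem paralogs were less than 2-fold apart. They covered drug and lipid transporters (Abcb1a/Abcb1b/Abcb4 at 1559 and 1355 FPKM, Abca8b/Abca8a/Abca9 at 1271 and 1480 FPKM), aldo-keto reductases (Akr1b10/Akr1b8/Akr1b7 at 560 and 889 FPKM), interferon-induced GTPases (Gbp9/Gbp10 at 893 and 567 FPKM) and zinc finger genes (Zfp868/Zfp869 at 353 and 496 FPKM). Ech1/Lgals4/Lgals6 (1713 and 2314 FPKM) joins a dienoyl-CoA isomerase of fatty acid oxidation with galectins. Zyg11a/Zyg11b, substrate adaptors of a ubiquitin ligase, had 1463 and 1061 FPKM. Hoxa7/Hoxa9, homeobox genes, had 157 and 108 FPKM, and Tmsb15l/Tmsb15b2/Tmsb15b1, thymosin beta genes, 219 and 147 FPKM. The log2 ratios of the loci named in this group lay between -0.65 and 0.67.

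Complement genes stood among the neighbouring-gene loci that were higher in CR. C1s/Gm5077 (chr6:124480362-124587010, minus strand) was listed at 128 and 588 FPKM, a log2 ratio of 2.19. C1s is the protease of the first classical complement complex, and C4 is its substrate. C4b/C4a (chr17:34865326-34960399, minus strand), complement component 4 and its sex-limited copy, had 65.9 and 179 FPKM (log2 1.42). The transcripts share 15.9% and 22.3% of the smaller gene's windows in these loci. Genes of the first complex with a locus of their own were less than 2-fold apart, with C1qa at 196 and 284 FPKM, C1qb at 81.0 and 108 FPKM, C1qc at 51.4 and 76.8 FPKM and C1ra at 153 and 164 FPKM. Of the later components only C2 and C3 were looked up. Both had a locus of their own and were at least 2-fold higher in CR, with C2 at 31.2 and 74.5 FPKM and C3 at 589 and 1203 FPKM.

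The other neighbouring loci past 2-fold upward were Gm12839/Cyp4b1, Npc2/Ltbp2 and Adat3/Scamp4. Gm12839/Cyp4b1 (chr4:115254643-115320310, minus strand) had 171 and 605 FPKM (log2 1.82), where Cyp4b1 is a fatty acid and xenobiotic hydroxylase and its transcripts share 23.6% of the smaller gene's windows with the predicted gene beside it. Npc2/Ltbp2 had 126 and 314 FPKM (log2 1.31). Npc2 carries cholesterol out of lysosomes, and Ltbp2 is a protein of elastic fibres, and the locus does not tell which of them differed. Adat3/Scamp4, which share an exon and encode a tRNA deaminase subunit and a membrane carrier protein, had 352 and 733 FPKM (log2 1.06). The locus 2610005L07Rik/6820431F20Rik fell just inside the threshold, at 214 and 422 FPKM (log2 0.97).

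Among neighbours lower in CR, Htra4/Plekha2 (chr8:26135400-26212283, minus strand) was listed at 530 and 126 FPKM, a log2 ratio of -2.07. Htra4 is a secreted serine protease, and Plekha2 an adaptor that binds phosphoinositides at the membrane. Gpatch3/Gpn2 had 207 and 61.5 FPKM (log2 -1.74), Jak3/Insl3 202 and 91.6 FPKM (log2 -1.14) and Med20/Usp49 455 and 226 FPKM, barely past 2-fold. Gpn2 is a GTPase of RNA polymerase II assembly, Jak3 the kinase of cytokine receptors with the common gamma chain, Insl3 a hormone of testicular Leydig cells, Med20 a Mediator subunit and Usp49 a deubiquitinase. Leng1/Tmc4 (127 and 53.5 FPKM) and Gp1bb/Sept5 (86.7 and 38.1 FPKM) were also at least 2-fold lower, the latter a pair known for readthrough from the septin gene into the platelet glycoprotein gene. Just inside the threshold were Tmem179b/Taf6l (175 and 91.0 FPKM) and Cebpb/A530013C23Rik (437 and 228 FPKM), where Cebpb is a transcription factor of inflammation and fat cell formation.

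The loci of histocompatibility genes did not share a direction. H2-Q6/H2-Q7 had 1190 and 656 FPKM (log2 -0.86), whereas H2-D1/LOC547349 had 1339 and 1929 FPKM (log2 0.53), H2-T23/H2-T9/H2-T22/H2-T10 578 and 773 FPKM (log2 0.42) and H2-K2/H2-K1 281 and 353 FPKM (log2 0.33). These class I genes present peptides to T cells or are related to those that do. The closest pair shared 15.5% of the smaller gene's windows in the H2-T23/H2-T9/H2-T22/H2-T10 locus and 9.65% in H2-Q6/H2-Q7. H2-K2 and H2-K1 shared no window, and H2-K1 and H2-D1 shared 0.849%. How reads were divided among the genes that share windows is uncertain. H2-Q10, a secreted class I gene with a locus of its own, had 21.3 and 375 FPKM and shares 8.91% of its windows with H2-Q7.

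Snurf/Snrpn (chr7:67127388-67285105, minus strand) is a natural bicistronic gene, a single transcript that encodes both a small peptide and a splicing protein, and it is expressed from the paternal chromosome. It was listed at 1272 and 961 FPKM, a log2 ratio of -0.40. Readthrough symbols that join both neighbours occurred in 3 loci, and these had 363 and 291 FPKM (Nup62-il4i1), 384 and 239 FPKM (Lrch4-sap25) and 719 and 773 FPKM (Iqcj-schip1). None of the 3 was 2-fold apart. A clone or predicted name was part of 54 merged loci, 45 of them among the neighbouring genes.

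The 49 small RNA hosts held 56 small RNA symbols, 40 of them microRNAs. Any signal in these loci comes from polyadenylated RNA of about 200-base fragments. The values therefore describe a longer transcript, the host where the locus names a host, and not the mature small RNA. In GENCODE M21, 54 of the 56 lay on the strand of a host named in the same locus. Over all transcripts of the host, 33 lay inside an exon, 14 crossed an exon edge and 7 lay in an intron, and 2 had no host gene in the locus. With only the basic transcript set without retained introns these numbers were 20, 18, 16 and 2. Symbols of the muscle microRNA families Mir1 and Mir133 occurred only as loci of their own (24 small RNA symbols did so), and none of the Mir206, Mir208, Mir499 or Mir486 families was in a merged locus.

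The most abundant small RNA host, Hipk3/Mir1902 (chr2:104266473-104334646, minus strand), was nearly equal in both libraries at 5303 and 5382 FPKM (log2 0.02). Hipk3 is a nuclear protein kinase and a well-known source of circular RNA. H19/Mir675 (chr7:149761436-149764258, minus strand), the imprinted maternal long noncoding RNA whose first exon gives miR-675, had 2254 and 1833 FPKM (log2 -0.30). Its reciprocally imprinted neighbour Igf2 had a locus of its own at 238 and 556 FPKM (log2 1.22). Meg3/Mir1906-1/Mir770, the maternal noncoding RNA of another imprinted domain, had 163 and 167 FPKM (log2 0.04). Thus the H19 and Meg3 loci were both less than 2-fold apart.

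Hosts of microRNAs known for roles in fibrosis, growth and muscle were also less than 2-fold apart. Tmem49/Mir21, in which the autophagy gene also called Vmp1 precedes miR-21, had 283 and 453 FPKM (log2 0.68). The noncoding hosts of miR-22 (2210403K04Rik/Mir22) and of miR-29b and miR-29c (A330023F24Rik/Mir29b-2/Mir29c) had 843 and 928 FPKM (log2 0.14) and 364 and 430 FPKM (log2 0.24). Ctdsp2/Mir26a-2/Mir546/Avil, which joins a small phosphatase and its miR-26a with the actin-binding gene Avil, had 1276 and 1221 FPKM (log2 -0.06). Dgcr8/Mir1306, whose host encodes the partner of Drosha in the first cut of microRNA precursors, had 173 and 214 FPKM (log2 0.31), and the RNA helicase locus Ddx5/Mir3064 had 1633 and 1955 FPKM (log2 0.26). Mir145/Mir143, the smooth muscle microRNAs listed without a host gene, had 45.3 and 52.4 FPKM (log2 0.21). Of 4 smooth muscle markers 3 were listed in the table, and these 3 were at least 2-fold higher in CR, with a sum of 719 and 1734 FPKM. Their part in the Mir145/Mir143 value was not tested.

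Among the 49 small RNA hosts, 5 passed 2-fold, 2.04% higher and 8.16% lower. Over all loci these shares were 10.6% and 10.9%, and over single-symbol loci 6.15% and 6.84%. Ercc2/Mir343, whose host encodes the XPD helicase of nucleotide excision repair, was higher in CR at 152 and 322 FPKM (log2 1.08). Col7a1/Mir711, collagen VII of anchoring fibrils, was lower at 451 and 217 FPKM (log2 -1.05). Snhg12/Snora44/Snora61/Snord99, a noncoding snoRNA host, was lower at 198 and 92.2 FPKM (log2 -1.09), with all of its 3 snoRNAs inside an exon of some transcript. Actr5/Mir3474, a subunit of the INO80 chromatin remodeller, had 69.2 and 28.0 FPKM (log2 -1.28), and AI506816/Mir3096 had 44.4 and 20.3 FPKM (log2 -1.09). Of 5 listed tendon markers, 3 were at least 2-fold lower in CR and none was at 0 (sum 1691 and 999 FPKM), and their part in the Col7a1 value was not tested.

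Hosts of snoRNAs and related RNAs had a median log2 ratio of 0.20 over 13 loci and hosts of microRNAs 0.01 over 36. Besides the ribosomal protein hosts above, Snhg8/Snora24 had 613 and 1052 FPKM (log2 0.78), while Cct6a/Snora15, a chaperonin subunit, had 1626 and 1279 FPKM (log2 -0.35) and 5830418K08Rik/Scarna9 384 and 286 FPKM (log2 -0.42). Further microRNA hosts with the larger ratios under 2-fold were Pfas/Mir3062, a purine synthesis enzyme (334 and 585 FPKM), Epc1/Mir1893, a chromatin protein (536 and 900 FPKM), 1110002B05Rik/Mir1892 (456 and 702 FPKM) and Fam65a/Mir1966 (290.5 and 174 FPKM). Psmb5/Mir686, a catalytic proteasome subunit (1363 and 1382 FPKM), Nrp1/Mir1903, a semaphorin and VEGF co-receptor (524 and 505 FPKM), Abca2/Mir3087, a lipid transporter (283 and 211 FPKM), and Cdk9/Mir2861, the kinase of transcription elongation (505 and 389 FPKM), were under 1.5-fold apart.

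Known hosts of small RNAs across the whole table were also counted from a list of 80 genes. Of these, 66 were listed and 61 were above 0 in both libraries, with 5 at least 2-fold higher in CR, 2 lower and 54 within. Beside these counts stand the shares of all loci in the main comparison, 10.6% at least 2-fold higher and 10.9% lower. For single-symbol loci the shares were 6.15% and 6.84%. The median log2 ratio of the 61 listed hosts was 0.09. In merged loci stood 9 of these hosts, 1 lower (Snhg12) and 8 within 2-fold. The hosts past 2-fold upward were loci of their own and included the slow and cardiac myosin genes Myh7 (8953 and 81978 FPKM) and Myh7b (32.1 and 132 FPKM), hosts of the Mir208 and Mir499 families.

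Loci listed at 0 in a library numbered 8 among merged loci (3.42%) and 6.61% of single-symbol loci. A 0 in this table can be a failed estimate, so no fold is given for them. The cluster Myh3/Myh8/Myh1/Myh4 (chr11:66891802-67122135, plus strand) was listed at 0 in both libraries. It holds embryonic, perinatal and fast adult myosin heavy chains, of which Myh1 and Myh4 are among the most abundant messenger RNAs of fast muscle. Its neighbour Myh2 was also at 0 in both, and Myh13, the extraocular myosin at the end of the cluster, was listed at 50484 and 37639 FPKM. The transcripts of Myh13 share 99 windows of 76 bases with Myh1, 36 with Myh4 and 170 with Myh8, at most 2.78% of the smaller gene's windows.

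Dcpp1/Dcpp3 (chr17:24017843-24056408, plus strand), demilune cell and parotid proteins secreted by salivary glands, was listed at 0 and 412 FPKM. Dcpp2, the third gene of the cluster, had the same pattern in a locus of its own, at 0 and 297 FPKM. Its transcripts share 27.9% of the smaller gene's windows with Dcpp3, so the loci are not independent. Olfr78/Olfr560, olfactory receptor genes, was listed at 0 and 45.6 FPKM. At 0 in the CR library alone were Poln/Haus3, a DNA polymerase with an augmin subunit (42.7 FPKM in the control), Atl1/Gm3086 (37.4 FPKM), Klk1b26/Egfbp2 (36.7 FPKM), G630090E17Rik/BC021785 (21.03 FPKM) and 4930524L23Rik/Foxp3, which holds the regulator of regulatory T cells (20.2 FPKM). These 5 had low control levels, the highest of them under 43 FPKM.

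**Figure D4:**
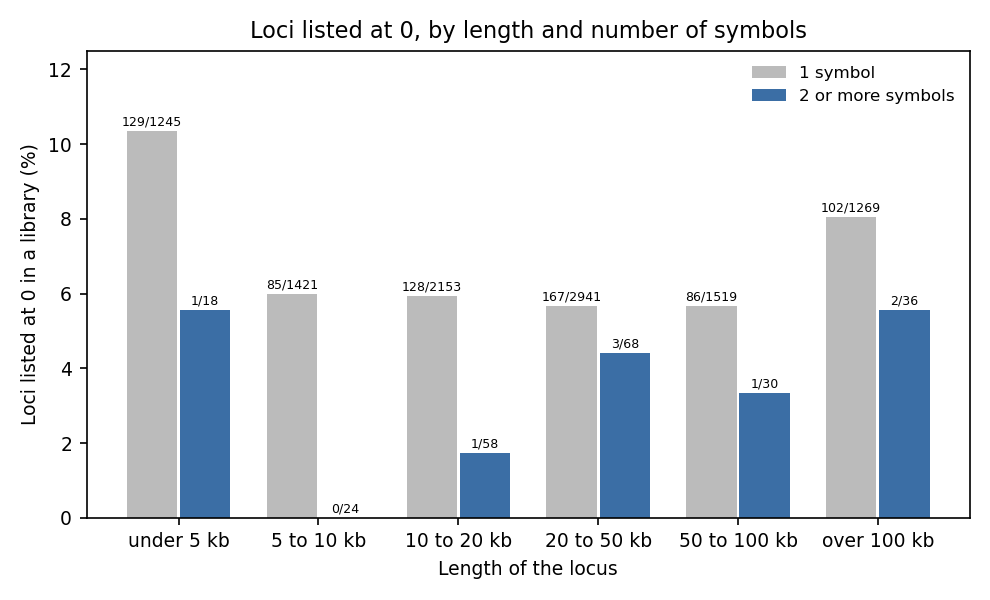
Share of loci listed at 0 in at least 1 library (y axis, %) by locus length on mm9 (x axis), for loci with 1 symbol (grey) and merged loci (blue); the numbers over the bars are loci at 0 of all loci. Among loci under 5 kb 129 of 1245 single-symbol loci and 1 of 18 merged loci were at 0, and over 100 kb 102 of 1269 and 2 of 36.

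Within each length range the merged share at 0 was below the single-symbol share, though with at most 3 merged loci at 0 in any range. Under 5 kb lay 7.69% of merged loci and 11.8% of single-symbol loci, the range in which single-symbol loci were most often at 0.

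How far the genes of a locus can be told apart by single reads differed widely among the 30 loci with copies. The windows take each read alone, without its mate, so pairs of reads can separate more than these shares show. At least 10% of the smaller gene's windows were shared in 17 of them. The highest share was in Srp54b/Srp54a/Srp54c, signal recognition particle genes, at 90.8%, where Srp54a was also listed as a locus of its own (309 and 237 FPKM, beside 568 and 463 FPKM for the merged locus). Below 2% were Scd3/Scd2 (1.44%), Abca8b/Abca8a/Abca9, Akr1b10/Akr1b8/Akr1b7 and Gbp9/Gbp10. The loci with copies that were past 2-fold ranged from 1.44% to 29.3% of shared windows.

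**Figure D5:**
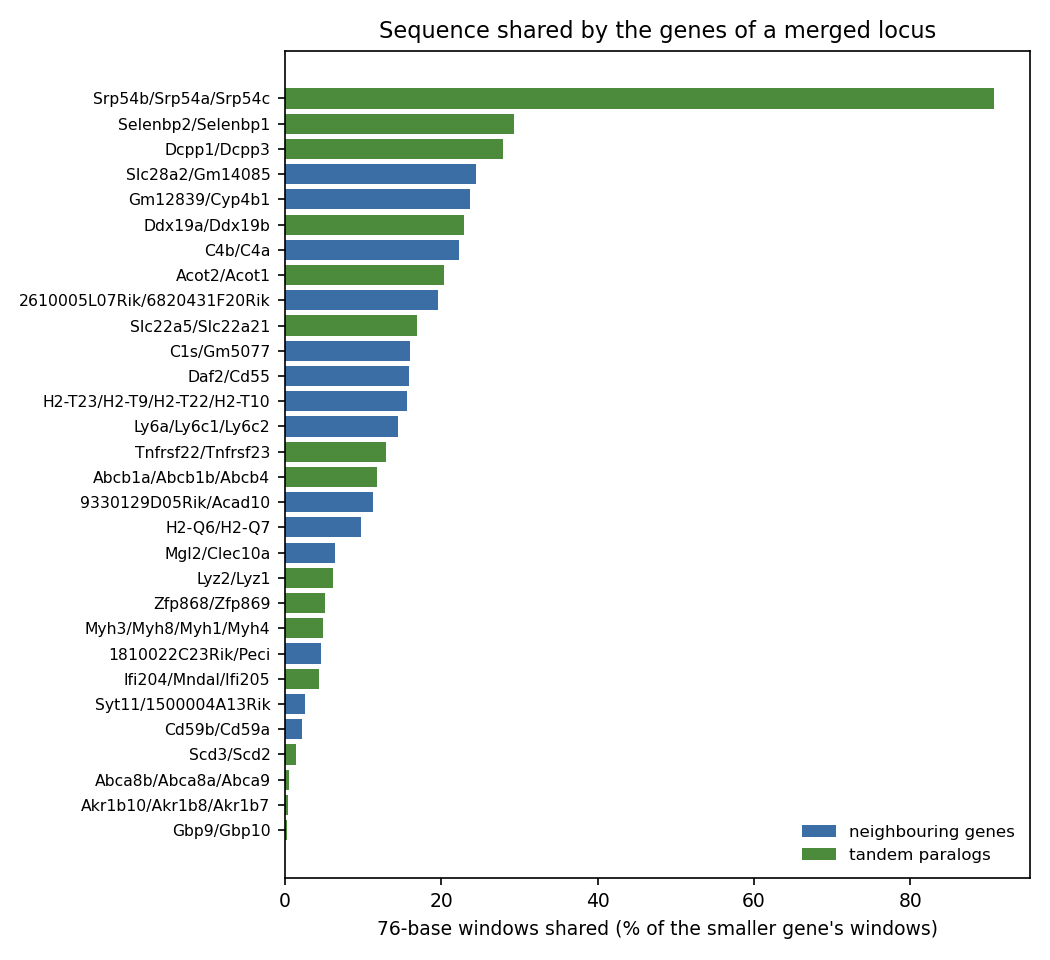
Windows of 76 bases that occur in the transcripts of 2 genes of a merged locus, as a percentage of the smaller gene's windows (x axis), for the closest pair of each of the 30 loci with copies (y axis); blue bars are neighbouring genes and green bars tandem paralogs. Srp54b/Srp54a/Srp54c stands at 90.8% and the next locus, Selenbp2/Selenbp1, at 29.3%.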

How the data were processed

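Per the submitters' processing notes, the authors aligned reads with TopHat 1.2.0 and used Cufflinks and Cuffdiff with mouse build mm9; the sources used here do not give other versions, options, the annotation or filters. Deposited by the authors were FPKM of each locus plus an offset of 1, inferred from their digits and their minimum, and 1 was subtracted. The columns sum to 12758500 and 13608800 FPKM, so levels are compared only within this table. Groups follow the diet in the labels. Loci with a mean of 10 FPKM or more that were at 0 in neither library were compared by the log2 ratio with a pseudocount of 1 FPKM. With 1 library per group no test was possible.

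Symbols were split at commas and classed by small RNA names first, then by a name stem of at least 3 letters, then as neighbours. Relations between genes, 76-base windows and coding runs came from GENCODE M21, and microRNA sequences from RefSeq, both of a later build than the table. Exon overlaps and the places of small RNAs were read within that build, and positions of loci are those of the table. In each class the text names the 6 loci of highest mean, the 6 highest and 6 lowest ratios at a mean of at least 100 FPKM, up to 4 loci at 0 in 1 library, those at 0 in both and loci with listed muscle or imprinted symbols. Others were named after their values were seen. The members and lists were chosen with earlier results of these data known. The ratio code was tested on simulated data. Python 3.11.15, numpy 2.4.6, pandas 2.3.3 and matplotlib 3.10.9 were used.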

Additional observations from a re-analysis of the deposited data

How the results depend on the processing

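With the libraries scaled to equal sums without the 50 most abundant loci, which moves every log2 ratio by -0.08, 7 merged loci were at least 2-fold higher in CR and 16 lower, beside 9 and 13 as reported, and the median log2 ratio was -0.12. With a mean of at least 100 FPKM the counts were 9 and 9. Counting loci whose genes share sequence as paralogs, an alternative chosen after seeing the data, moved the median of the tandem paralogs to 0.14 from -0.09. Under equal sums the median of the small RNA hosts went from 0.02 to -0.06, so neither class median has a settled sign. Of the 57 named loci above 0 in both libraries, Hipk3/Mir1902 (-0.06), Psmb5/Mir686 (-0.06) and Meg3/Mir1906-1/Mir770 (-0.04) changed sign under equal sums, each from a log2 ratio near 0, and none did with centring on the median locus or a pseudocount of 5 FPKM. Adat3/Scamp4 and Ercc2/Mir343 fell inside 2-fold and Tmem179b/Taf6l and Cebpb/A530013C23Rik passed it under equal sums, and Med20/Usp49 fell inside it with the pseudocount of 5 FPKM. No paired analysis was possible because each group has 1 library. Depth is unknown, so counting error is not given.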

Other observations

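Some small RNAs that are usually found inside a longer host transcript had a locus of their own. These loci entered the comparisons above only within the values over single-symbol loci and over all loci. Mir1-1, of the muscle microRNA family miR-1, was listed at 599 and 386 FPKM, and Mir133a-2, which is cut from the same precursor, at 410 and 504 FPKM. Both loci lie on chromosome 2 and overlap, so how their signal was divided is uncertain. Mir133b was listed at 111 and 95.3 FPKM.

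The kallikrein locus Klk1b26/Egfbp2, named above for its 0 in the CR library, is likewise known from salivary glands as Dcpp1/Dcpp3 is, and the 2 loci were at 0 in opposite libraries (36.7 and 0 FPKM against 0 and 412 FPKM). Dcpp2, in a locus of its own, was at 0 and 297 FPKM, as Dcpp1/Dcpp3 was at 0 in the control. A 0 in this table can be a failed estimate. Klk1b26/Egfbp2 and Dcpp1/Dcpp3 were set side by side after their values were seen. No list of salivary gland genes was counted, and the origin of the RNA was not tested.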
